A study of Mus musculus with 6 samples.

Results

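Of the 54167 genes measured in AOM/DSS-induced colorectal tumors, 37 were taken by name as peroxins and peroxisomal proteins that act outside β-oxidation, a rule that uses no measured value, although the list was drawn up with earlier results of these tumors known. All 37 were found in the deposited values under their gene names. RNA-seq was available for 6 tumors, 3 from *Trp53fl/fl* mice and 3 from *Pvillin-Cre + Trp53fl/fl* (*VP*) mice, all labelled C57BL/6J. Both genotypes carry the floxed *Trp53* alleles, which stay intact without Cre, and both were treated alike. According to the methods, male mice aged 8 weeks received 10 mg/kg azoxymethane (AOM), a carcinogen, by intraperitoneal injection, and then drinking water with 2.5% dextran sulfate sodium (DSS), an irritant that causes colitis, for 7 days, a cycle that was given 2 more times before tumors were assessed at day 98. The villin promoter drives Cre in the intestinal epithelium, so that fibroblasts, immune cells and vessels inside a *VP* tumor keep *Trp53*. The labels do not say whether the tumors of a genotype came from separate mice, and if some did not, the p-values would measure only the spread between these tumors. The comparison asks whether the loss of epithelial p53 went along with other levels of the transcripts that build the peroxisome and serve its work apart from β-oxidation.

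Peroxisomes are bounded by a single membrane and import folded enzymes from the cytosol. Proteins called peroxins carry this import, insert the membrane proteins and let the organelle elongate and divide. Besides shortening very long and branched fatty acids, peroxisomes start the synthesis of ether lipids, shorten phytanic acid by α-oxidation, oxidize polyamines and D-amino acids, and contain enzymes that remove the hydrogen peroxide made by their oxidases. Cells that lack a central peroxin have empty peroxisome membranes or none, while loss of a single matrix enzyme removes only its reaction.

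Of the 37 genes, 33 could be tested, and none of these passed limma's adjusted test between *VP* and *Trp53fl/fl* tumors, beside 0.165% of all genes tested. For 26 of the 33, among them most of those for import and membrane assembly and all of those for ether lipid synthesis, α-oxidation and matrix proteolysis, the tumors of the 2 genotypes overlapped, as they did for most genes measured, since all *VP* tumors lay below all *Trp53fl/fl* tumors for 13.3% of all genes tested and above for 6.03%. The lowest p-values belonged to *Paox*, a polyamine oxidase, with a log2 fold change of 0.53, and *Prdx5*, a peroxiredoxin, with 0.28, both with higher values in every *VP* tumor. The lowest p among the genes with lower *VP* values belonged to *Pex7*, an import receptor, with a log2 fold change of -0.28. All 3 failed the adjustment over all genes (limma adjusted p = 0.341 for *Paox*, 0.348 for *Prdx5* and 0.416 for *Pex7*).

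Values are TPM, a relative abundance scaled for transcript length and for the total of each tumor. They keep no number of reads, so the depth behind them is unknown. Fold changes are differences of mean log2(TPM + 1), *VP* minus *Trp53fl/fl*, so that differences between low values come out smaller than they are. The test covered the 15117 genes that reached 1 TPM in 3 or more tumors. Of these, 0.165% passed an adjusted p of 0.05, with 12 genes (0.0794%) higher and 13 (0.086%) lower in *VP* tumors. *Trp53* had 124.94, 99.3 and 147.45 TPM in *Trp53fl/fl* tumors against 38.45, 32.79 and 27.83 TPM in *VP* tumors (log2 fold change -1.87, SE 0.18, limma adjusted p = 0.0207). Pairs of tumors of the same genotype correlated across genes at 0.959 to 0.974 on the log2(TPM + 1) scale and pairs of different genotypes at 0.948 to 0.97.

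Markers of epithelium and of other cells were present in both genotypes, and some of their levels moved with the genotype. The summed TPM of 12 epithelial markers was 10630 to 10950 in *Trp53fl/fl* tumors and 12070 to 13060 in *VP* tumors. Of the 12, 10 had a higher *VP* mean on the log2 scale, and the median log2 fold change was 0.15. Only 3, *Cldn7*, *Krt19* and *Lgals4*, had an unadjusted p under 0.05, and none passed the adjustment. The summed TPM of 10 neutrophil markers was 368.2 to 700.6 in *Trp53fl/fl* tumors and 1184 to 2011 in *VP* tumors, with 8 of 10 at an unadjusted p under 0.05, all higher, and 1, *Ngp*, past the adjustment (limma adjusted p = 0.00804). *Camp*, a defining marker of that list, was listed at 0 in all 3 *Trp53fl/fl* tumors. No epithelial marker was at 0 in any tumor. In bulk tissue, fewer cells of a type and less RNA per cell cannot be told apart. The part of these markers in the values below was not tested except by centring on the epithelial markers, which is given for part of the genes.

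The regulatory sequence just before the start is shown for 5 members, namely the 4 genes with the lowest p-values (*Paox*, *Prdx5*, *Pex7* and *Pex11a*) and *Cat*, whose window holds a motif of the nuclear receptors that act on peroxisomal genes. The letters are from RefSeq on GRCm38.p6 and are read 5′ to 3′ on the strand of the gene, with the last base next to the transcription start. Capitals mark 3 motifs found by a search of both strands: GGGCGG, the GC box (CCGCCC on the other strand), CCAAT, the CCAAT box (ATTGG on the other strand), and, in *Cat*, AGGTCA, the hexamer that nuclear receptors bind.
Paox, chr7:140125535-140125684, + strand: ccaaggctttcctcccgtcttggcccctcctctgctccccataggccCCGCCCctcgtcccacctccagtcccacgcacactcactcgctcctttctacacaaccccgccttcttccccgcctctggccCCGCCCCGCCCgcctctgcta
Prdx5, chr19:6910107-6910256, - strand: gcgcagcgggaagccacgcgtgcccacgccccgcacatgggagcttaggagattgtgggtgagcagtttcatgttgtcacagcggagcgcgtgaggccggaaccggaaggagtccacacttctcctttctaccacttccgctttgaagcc
Pex7, chr10:19907675-19907824, - strand: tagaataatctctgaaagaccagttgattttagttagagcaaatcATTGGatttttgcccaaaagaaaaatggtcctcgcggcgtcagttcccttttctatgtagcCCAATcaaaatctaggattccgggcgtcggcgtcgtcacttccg
Pex11a, chr7:79743132-79743281, - strand: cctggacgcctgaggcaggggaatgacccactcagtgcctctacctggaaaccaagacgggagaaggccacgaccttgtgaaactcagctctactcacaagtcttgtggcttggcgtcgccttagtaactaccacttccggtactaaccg
Cat, chr2:103485154-103485373, - strand: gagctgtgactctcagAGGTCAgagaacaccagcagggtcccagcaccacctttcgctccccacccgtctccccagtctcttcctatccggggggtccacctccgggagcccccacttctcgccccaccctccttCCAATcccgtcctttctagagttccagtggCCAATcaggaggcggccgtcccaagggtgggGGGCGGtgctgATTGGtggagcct

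The 150 bases of *Paox* held 3 GC boxes, those of *Pex7* held 2 CCAAT boxes in opposite orientations, and those of *Prdx5* and *Pex11a* held none of these motifs. The 220 bases of *Cat* held the AGGTCA hexamer at position -204 from the start, 3 CCAAT boxes and 1 GC box. RefSeq windows from 250 bases before to 50 bases after the start were matched to 32 of the 37 members, as 42 windows because some genes have several starts. Of these windows, 11.9% held AGGTCA, in *Cat*, *Dao*, *Ddo*, *Pex11g* and *Phyh*, against 16.3% of all 32851 windows and 12.9% of the windows of genes tested. The hexamer repeated after 1 base of any kind, the arrangement of the element bound by PPARα, was in 0 of 42 windows and in 0.0396% of all windows. The hexamer repeated after 3 bases of any kind, the arrangement bound by the vitamin D receptor and its partner, was also in 0 of 42, and in 0.00609% of all windows. A window without these letters says nothing about the binding of a factor.

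The GC box was in 64.3% of the member windows, against 35.7% of all windows and 60.0% of those of genes tested. The E-box CACGTG was in 9.52%, 7.15% and 9.48%, CCAAT in 33.3%, 37.4% and 37.5%, and TATAAA in 7.14%, 13.6% and 8.14%, in the same order. For each of these motifs the share over the members was closer to that of the genes tested than to that of all windows, except for CCAAT, where those shares were nearly equal. Median CpG content differed between the members tested and the 4 genes below the filter on low values, *Hao1*, *Dao*, *Ddo* and *Agxt*. Over windows of the members tested the median ratio of observed to expected CpG was 0.726 (0.727 over all genes tested). Over the 6 windows of the 4 weakly expressed genes, several of them from *Dao*, the median was 0.17. The ranges overlapped, at 0.139 to 0.965 for the members tested and 0.118 to 0.494 for the weakly expressed genes.

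**Figure D1:**
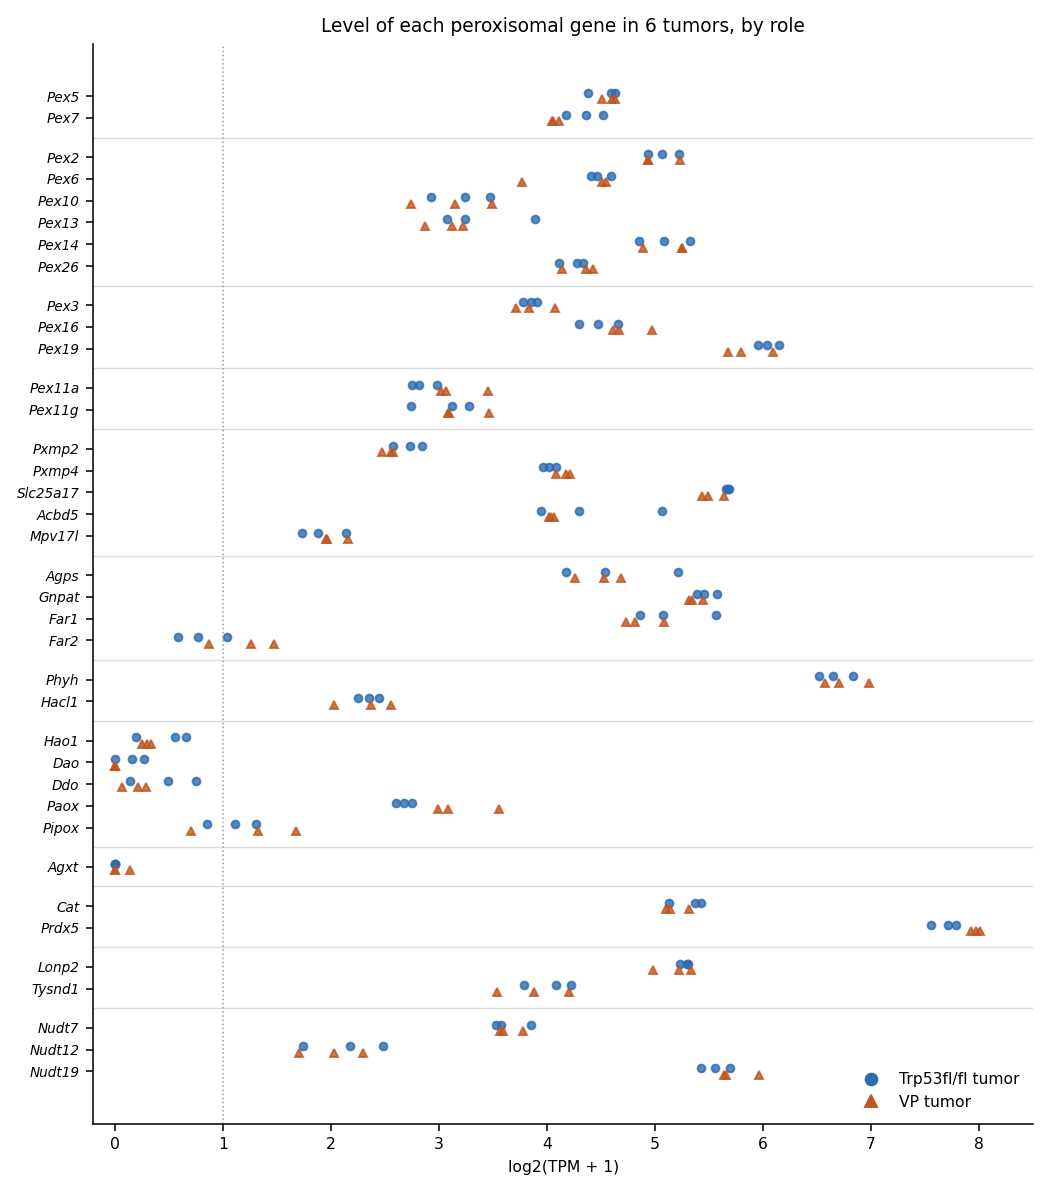
Level of each of the 37 genes, as log2(TPM + 1) on the horizontal axis, with a circle for each of 3 *Trp53fl/fl* tumors and a triangle for each of 3 *VP* tumors, and genes grouped by role between the grey lines. The dotted line marks 1 TPM, and *Prdx5* and *Phyh* stand highest while *Hao1*, *Dao*, *Ddo* and *Agxt* lie below the line in every tumor.

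Levels differed widely between the genes. Over the 6 tumors, *Prdx5* had a mean of 227.1 TPM and *Phyh*, the α-oxidation hydroxylase, one of 104.3 TPM, 20 members were between 10 and 100 TPM, 11 between 1 and 10 TPM, and 4 below 1 TPM. The plot of levels by role shows the tumors of the 2 genotypes interleaved in most lines. The sum over all 37 members was 925.9, 969.3 and 956.9 TPM in the *Trp53fl/fl* tumors and 952.5, 956.3 and 1009 TPM in the *VP* tumors, or 950.7 ± 22.4 against 972.6 ± 31.7 (mean ± SD, n = 3 each), so that the groups overlapped.

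Of the 33 members that passed the filter, 0 had an adjusted p under 0.05, beside 0.165% of all genes tested, and the lowest adjusted p was 0.341. At an unadjusted p under 0.05, 2 were higher in *VP* tumors and 0 were lower, beside 4.51% and 8.0% of all genes tested. Every *VP* tumor lay below every *Trp53fl/fl* tumor for 3 members, or 9.09% of those tested beside 13.3% of all genes. Every *VP* tumor lay above for 4 members, or 12.1% beside 6.03%, and the other 26 overlapped. Neither count was tested against that background, and the balance followed the scaling. With median-of-ratios rescaling 0 members lay below and 6 above (8.09% and 9.97% of all genes), with quantile normalization 1 and 5 (8.88% and 8.38%), and with centring on the epithelial markers 9 and 1 (32.6% and 2.09%). The median log2 fold change was -0.03 over the members and -0.07 over all genes tested, and the fitted sign was negative for 18 and positive for 15. The mean of log2(TPM + 1) over the members tested was 4.11, 4.17 and 4.08 in the *Trp53fl/fl* tumors and 4.12, 4.07 and 4.16 in the *VP* tumors.

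**Figure D2:**
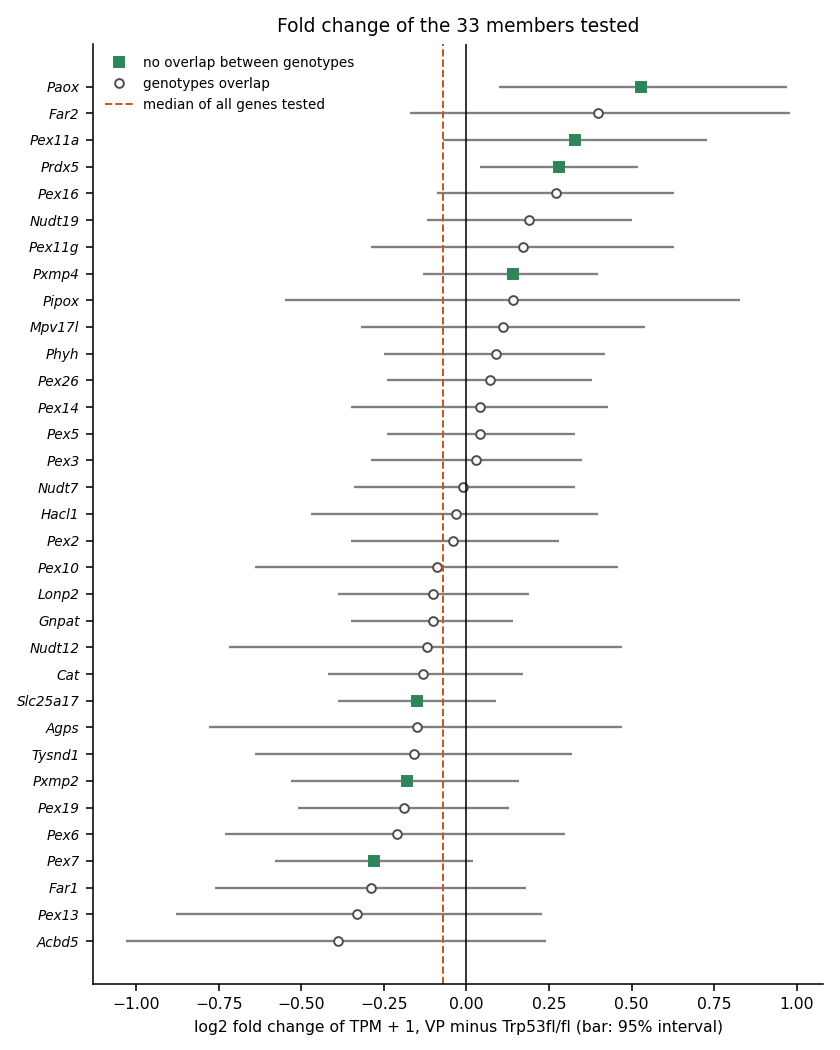
Log2 fold change of TPM + 1, *VP* minus *Trp53fl/fl*, for the 33 members tested, in order of size, with 95% limma intervals (3 tumors per genotype). Squares are genes whose 2 genotypes did not overlap, the dashed line is the median of all genes tested at -0.07, and only the intervals of *Paox* and *Prdx5* lie clear of 0.

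The 95% intervals set bounds, on the scale of log2(TPM + 1), on what these tumors leave room for. Fold changes ran from -0.39 for *Acbd5* to 0.53 for *Paox* with standard errors of 0.10 to 0.29, and 31 of 33 intervals included 0. For 32 of the 33, the whole interval lay between -1 and 1 on that scale. The exception was *Acbd5*, with -1.03 to 0.24. For members near 1 TPM the scale makes differences smaller, so that these bounds are too narrow for them. *Far2*, with an interval of -0.17 to 0.98, had a log2 fold change of 0.40, and of 0.74 with a pseudocount of 0.1.

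The import receptors pick up enzymes by short signals and bring them to the membrane. *Pex5*, which reads the signal at the C-terminus of most matrix enzymes, was at 23.83, 19.77 and 23.12 TPM in *Trp53fl/fl* tumors and at 21.77, 23.29 and 23.69 TPM in *VP* tumors. These ranges overlapped (log2 fold change 0.04, SE 0.12, 95% interval -0.24 to 0.33). *Pex7*, which carries the few enzymes with an N-terminal signal, among them the thiolase of β-oxidation and *Agps* and *Phyh* of the present list, was at 21.92, 17.13 and 19.53 TPM in *Trp53fl/fl* tumors and at 15.65, 15.48 and 16.25 TPM in *VP* tumors. Every *VP* tumor was below every *Trp53fl/fl* tumor, and the *VP* tumors lay close together. Its log2 fold change of -0.28 (SE 0.13, limma adjusted p = 0.416) had an interval of -0.58 to 0.02. Centring each tumor on the epithelial markers moved it to -0.46, and without *Trp53fl/fl* replicate 2 it was -0.37. In both settings its unadjusted p was under the threshold of 0.05 and its adjusted p was not. With that centring 24.5% of all genes tested were lower at an unadjusted p under 0.05. The log2 fold change of *Pex7* was -0.21 with median-of-ratios rescaling, where its genotypes overlapped. It was -0.20 with quantile normalization and also without *Trp53fl/fl* replicate 1.

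**Figure D3:**
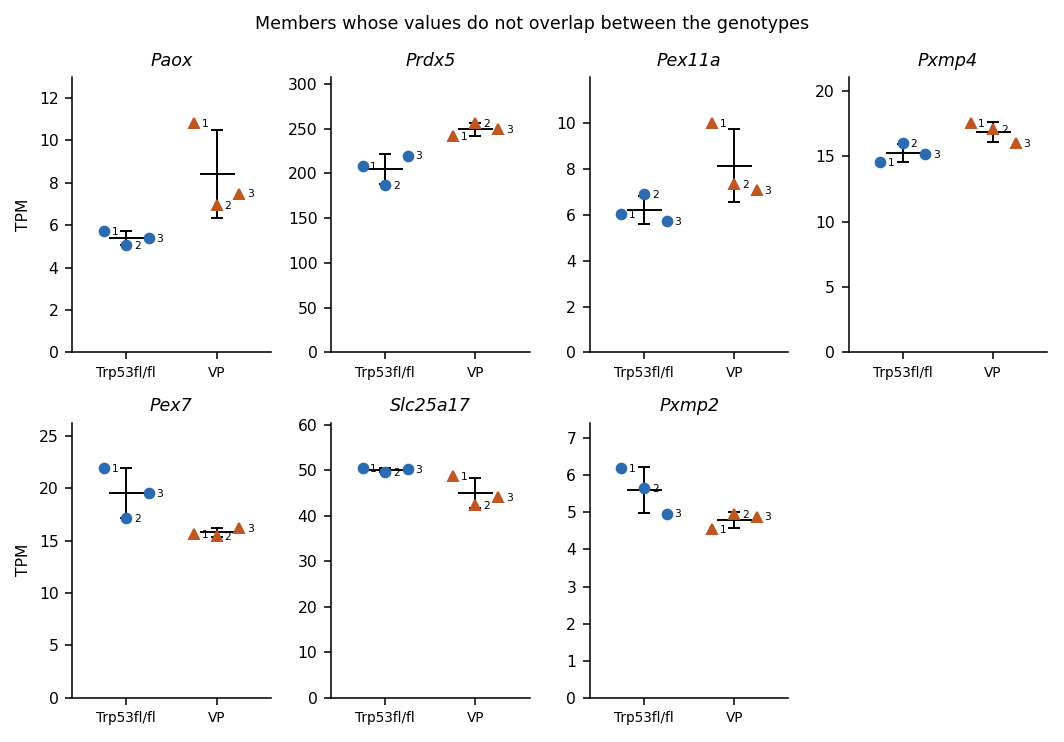
TPM in each tumor for the 7 members whose genotypes did not overlap (numbers are replicate numbers, lines and bars are mean ± SD, n = 3 each, axes start at 0). *Paox*, *Prdx5*, *Pex11a* and *Pxmp4* were higher in every *VP* tumor and *Pex7*, *Slc25a17* and *Pxmp2* lower, with *Pxmp2* and *Pxmp4* nearly touching.

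At the membrane, receptors dock on *Pex13* and *Pex14* and are then pulled out again for reuse, which needs the ubiquitin ligases *Pex2* and *Pex10* and the ATPase *Pex6*, held on the membrane by *Pex26*. *Pex14* was the most abundant of these, at 32.99, 27.89 and 39.08 TPM in *Trp53fl/fl* tumors and 37.06, 28.57 and 37.05 TPM in *VP* tumors, with a log2 fold change of 0.04 (SE 0.17). Both genotypes covered nearly the same range. *Pex2* had means of 32.72 ± 3.37 and 31.94 ± 4.05 TPM in *Trp53fl/fl* and *VP* tumors (SD, n = 3 each, as for all means that follow), *Pex26* of 17.95 ± 1.47 and 18.89 ± 2.05 TPM, and *Pex10* of 8.403 ± 1.75 and 7.927 ± 2.30 TPM. For *Pex6*, chosen after its values were seen, *VP* replicate 1 had 12.66 TPM and the other 5 tumors 20.27 to 23.15 TPM. Its log2 fold change of -0.21 (SE 0.22) became 0.04 without that tumor. *Pex13*, chosen likewise, is described with the other genes that were high in *Trp53fl/fl* replicate 2. Summed over the 6 genes, the machinery stood at 123.8 ± 2.82 TPM in *Trp53fl/fl* tumors and 119.4 ± 7.0 TPM in *VP* tumors.

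Membrane proteins are inserted with the help of *Pex3*, *Pex16* and *Pex19*, and cells that lack any of these form no normal peroxisomes. *Pex19*, the soluble chaperone that binds new membrane proteins, was at 64.62, 60.86 and 69.91 TPM in *Trp53fl/fl* tumors and 54.56, 49.96 and 67.42 TPM in *VP* tumors. *VP* replicates 1 and 2 were below all *Trp53fl/fl* tumors and *VP* replicate 3 was among them (log2 fold change -0.19, SE 0.14). The log2 fold change was -0.10 without *VP* replicate 2 and -0.31 without *VP* replicate 3, the latter with an unadjusted p under 0.05. Its docking partner *Pex3* had means of 13.40 ± 0.622 and 13.74 ± 1.89 TPM. *Pex16*, chosen after its values were seen, had 21.23, 18.63 and 24.27 TPM in *Trp53fl/fl* tumors and 24.36, 23.39 and 30.48 TPM in *VP* tumors, with a log2 fold change of 0.27 (SE 0.15, limma adjusted p = 0.488). The highest *Trp53fl/fl* tumor lay above the lowest *VP* tumor. The sum over the 3 genes was 99.91 ± 6.74 against 97.13 ± 13.0 TPM.

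Pex11 proteins bend the membrane as peroxisomes elongate before they divide, and *Pex11a* is the form that fibrate drugs induce in rodents through PPARα. *Pex11a* was at 6.04, 6.90 and 5.72 TPM in *Trp53fl/fl* tumors and at 9.98, 7.35 and 7.09 TPM in *VP* tumors. Every *VP* tumor was higher, *VP* replicate 1 most of all, and *VP* replicate 3 exceeded *Trp53fl/fl* replicate 2 only narrowly. The log2 fold change was 0.33 (SE 0.17, 95% interval -0.07 to 0.73, limma adjusted p = 0.459). It was 0.15 after centring on the epithelial markers and 0.19 without *VP* replicate 1. Quantile normalization gave 0.42, with an unadjusted p under the threshold of 0.05 and an adjusted p above it. *Pex11g* was at 5.68, 7.70 and 8.72 TPM and at 7.54, 7.46 and 10.05 TPM, with overlap and a log2 fold change of 0.17 (SE 0.20), which ranged from 0.01 without *Trp53fl/fl* replicate 1 to 0.28 without *Trp53fl/fl* replicate 3.

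The membrane also holds channels, carriers and contacts with other organelles. *Slc25a17*, a carrier of coenzyme A and other cofactors into the peroxisome, was at 50.37, 49.48 and 50.25 TPM in *Trp53fl/fl* tumors and at 48.69, 42.30 and 44.00 TPM in *VP* tumors. The *Trp53fl/fl* tumors were nearly equal and all *VP* tumors were below them, *VP* replicate 1 by little (log2 fold change -0.15, SE 0.10, limma adjusted p = 0.546). *Pxmp2*, which forms a pore for small solutes, was at 6.19, 5.65 and 4.97 TPM and at 4.55, 4.96 and 4.89 TPM. The nearest pair of tumors differed by a single unit of the last deposited decimal, and the log2 fold change was -0.18 (SE 0.15). *Pxmp4*, a membrane protein of the same family name, was at 14.57, 15.97 and 15.17 TPM and at 17.51, 17.08 and 15.99 TPM, again with the nearest tumors almost equal (log2 fold change 0.14, SE 0.11, and -0.04 with centring on the epithelial markers). *Mpv17l* had means of 2.81 ± 0.561 and 3.08 ± 0.335 TPM. Centring on the epithelial markers moved the log2 fold change of *Slc25a17* to -0.33 and that of *Pxmp2* to -0.36. Both then had an unadjusted limma p under 0.05, and neither passed the adjustment. With that centring 24.5% of all genes tested were lower at an unadjusted p under 0.05.

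Ether lipid synthesis begins inside the peroxisome with *Gnpat*, which acylates dihydroxyacetone phosphate, and *Agps*, which exchanges the acyl chain for a fatty alcohol supplied by *Far1* or *Far2*. *Gnpat*, the most abundant, was at 42.90, 40.80 and 46.52 TPM in *Trp53fl/fl* tumors and at 38.88, 39.55 and 42.61 TPM in *VP* tumors. *VP* replicates 1 and 2 were below the *Trp53fl/fl* tumors and *VP* replicate 3 lay between them (log2 fold change -0.10, SE 0.10). *Far2*, chosen after its values were seen, was at 0.71, 0.50 and 1.05 TPM and at 1.39, 1.78 and 0.83 TPM, a level at which the filter just admits it. The ranges overlapped, with a log2 fold change of 0.40 (SE 0.24, limma adjusted p = 0.515), and of 0.74 with a pseudocount of 0.1. Exons of *Far2* share 837 bases (11.4%) with *Ergic2* on the opposite strand, which was at 53.61 ± 10.5 and 36.3 ± 3.58 TPM, and whether strand was used in the counting is not stated in the sources used here. The share of *Ergic2* reads in the *Far2* value was not tested.

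*Agps*, *Far1*, *Acbd5* and *Pex13* had a common trait, a high value in *Trp53fl/fl* replicate 2, and were chosen for it after their values were seen. *Acbd5*, which ties peroxisomes to the endoplasmic reticulum and binds very long acyl-CoA, was at 18.68, 32.41 and 14.36 TPM in *Trp53fl/fl* tumors and at 15.19, 15.73 and 15.43 TPM in *VP* tumors. *Agps* was at 22.26, 36.20 and 17.13 TPM and at 24.81, 18.21 and 22.11 TPM. *Far1* was at 32.74, 46.35 and 28.07 TPM and at 27.22, 33.00 and 25.65 TPM. In each of these the second *Trp53fl/fl* tumor was the highest of all 6 and the other 5 mingled. *Pex13*, the docking protein, showed the same with 8.45, 13.83 and 7.41 TPM against 6.33, 8.34 and 7.71 TPM. Without that tumor the log2 fold changes went from -0.39 to -0.08 for *Acbd5*, from -0.15 to 0.13 for *Agps*, from -0.29 to -0.09 for *Far1* and from -0.33 to -0.08 for *Pex13*. Without *Trp53fl/fl* replicate 3 they went the other way, to -0.64, -0.38, -0.44 and -0.49 in the same order, and the unadjusted p of *Acbd5* was then under 0.05. With centring on the epithelial markers they were -0.57, -0.33, -0.47 and -0.51 in that order. The unadjusted p of *Far1* was then under 0.05, as for 24.5% of all genes tested in that direction, and its adjusted p was not. *Trp53fl/fl* replicate 2 had the highest value for 7 of the 33 members (21.2%) and for 27.1% of all genes tested.

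**Figure D4:**
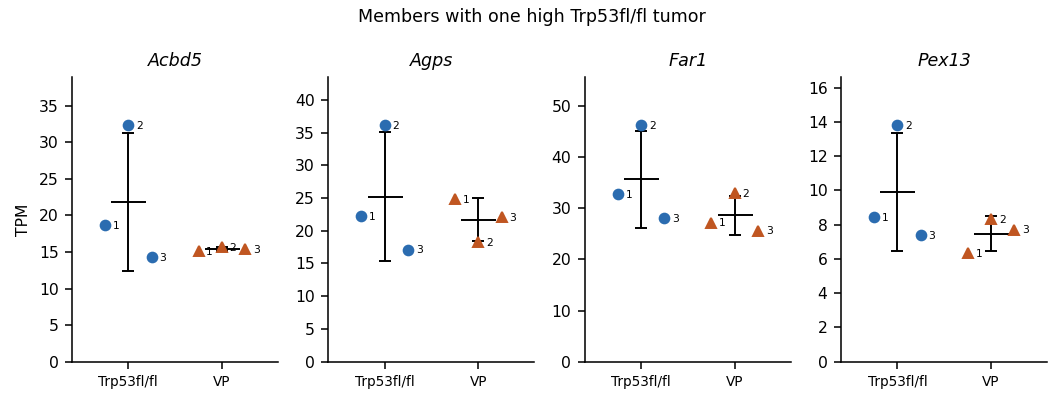
TPM in each tumor for *Acbd5*, *Agps*, *Far1* and *Pex13* (numbers are replicate numbers, lines and bars are mean ± SD, n = 3 each, axes start at 0). *Trp53fl/fl* replicate 2 is the highest of the 6 tumors in each panel, at 32.41, 36.20, 46.35 and 13.83 TPM, and the other 5 tumors overlap.

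The sum over the 4 ether lipid genes carried the mark of that tumor. It was 98.61, 123.8 and 92.77 TPM in *Trp53fl/fl* tumors and 92.3, 92.54 and 91.2 TPM in *VP* tumors. The *VP* tumors were almost equal, and all 3 lay below the lowest *Trp53fl/fl* tumor, the nearest of them by a small margin. The factors of median-of-ratios rescaling were 1.029 to 1.034 in *Trp53fl/fl* tumors and 0.9674 to 0.9834 in *VP* tumors. Division by them raises *VP* tumors relative to *Trp53fl/fl* tumors by more than that margin, so this separation depended on the scaling.

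α-Oxidation removes a carbon from phytanic acid, whose methyl group blocks β-oxidation. *Phyh*, the hydroxylase that opens it, was at 90.63, 112.65 and 99.45 TPM in *Trp53fl/fl* tumors and at 103.19, 94.42 and 125.64 TPM in *VP* tumors. The tumors of both genotypes mixed freely, and the log2 fold change was 0.09 (SE 0.14, 95% interval -0.25 to 0.42). *Hacl1*, the lyase that follows, had means of 4.11 ± 0.340 and 4.04 ± 0.907 TPM, far below *Phyh* on the same per-length scale.

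The oxidases that form hydrogen peroxide were weak in these tumors apart from *Paox*. *Paox*, which oxidizes acetylated spermine and spermidine back to smaller polyamines, was at 5.74, 5.08 and 5.40 TPM in *Trp53fl/fl* tumors and at 10.80, 6.95 and 7.49 TPM in *VP* tumors. All *VP* tumors were higher, by a smaller gap for replicates 2 and 3 and a wide gap for replicate 1. The mean was 5.41 ± 0.330 TPM against 8.41 ± 2.08 TPM, a log2 fold change of 0.53 (SE 0.18, 95% interval 0.10 to 0.97, limma adjusted p = 0.341). It was 0.36 without *VP* replicate 1, 0.50 without *Trp53fl/fl* replicate 2 and 0.35 with centring on the epithelial markers, and in these settings its unadjusted p was no longer under 0.05. *Paox* lies at chr7:140115799-140137224 on the plus strand of GRCm38 in GENCODE M21, and 142 of its exonic bases (2.89%) are shared with *Echs1* on the other strand, an enzyme of mitochondrial β-oxidation at 81.05 ± 13.3 and 93.39 ± 3.37 TPM. The contribution of *Echs1* reads to the *Paox* value was not tested.

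*Pipox*, which oxidizes pipecolate and sarcosine, was at 1.47, 1.17 and 0.81 TPM in *Trp53fl/fl* tumors and at 1.5, 0.63 and 2.21 TPM in *VP* tumors, with both extremes in *VP* tumors. *Hao1*, the glycolate oxidase of liver, was at 0.15 to 0.58 TPM over the 6 tumors, and *Ddo*, which oxidizes D-aspartate, at 0.05 to 0.68 TPM. *Dao*, the oxidase of neutral D-amino acids, was listed at 0, 0.21 and 0.12 TPM in *Trp53fl/fl* tumors and at 0 in all *VP* tumors. *Agxt*, which turns glyoxylate into glycine in liver, was listed at 0 in 5 tumors and at 0.10 TPM in *VP* replicate 1. These 4 genes did not reach 1 TPM in 3 tumors and were not tested, and at such levels no difference between genotypes can be read.

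Hydrogen peroxide is removed by *Cat*, the catalase of the matrix, and by *Prdx5*, a peroxiredoxin that is also found in mitochondria and the cytosol, so that its transcript is not a measure of peroxisomes alone. *Prdx5* was at 208.02, 187.14 and 219.98 TPM in *Trp53fl/fl* tumors and at 241.82, 256.04 and 249.71 TPM in *VP* tumors. Every *VP* tumor was higher, and the gap between the groups was wider than the range of the *VP* tumors but narrower than that of the *Trp53fl/fl* tumors. The mean was 205.0 ± 16.6 TPM against 249.2 ± 7.12 TPM, a log2 fold change of 0.28 (SE 0.10, 95% interval 0.04 to 0.52, limma adjusted p = 0.348). It was 0.10 with centring on the epithelial markers, whose summed level was likewise higher in every *VP* tumor. Its unadjusted p was above 0.05 in that setting and without *Trp53fl/fl* replicate 1, *Trp53fl/fl* replicate 2, *VP* replicate 2 or *VP* replicate 3, with log2 fold changes of 0.22 to 0.33 over all 6 omissions. Exons of *Prdx5* (chr19:6906697-6910106, minus strand) share 409 bases (19.1%) with *Trmt112* on the plus strand, which was at 80.67 ± 14.4 and 68.45 ± 8.27 TPM. *Cat*, chosen after its values were seen, was at 33.95, 42.04 and 40.46 TPM and at 33.24, 38.75 and 34.20 TPM, with overlap and a log2 fold change of -0.13 (SE 0.13).

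Within the matrix, *Lonp2* degrades and refolds damaged proteins and *Tysnd1* trims imported enzymes to their mature form. *Lonp2* was at 36.63, 38.55 and 38.33 TPM in *Trp53fl/fl* tumors and at 30.53, 39.34 and 36.33 TPM in *VP* tumors. The tumors overlapped, with *VP* replicate 1 lowest and *VP* replicate 2 highest (log2 fold change -0.10, SE 0.12). *Tysnd1* had means of 15.49 ± 2.48 and 13.92 ± 3.43 TPM.

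The nudix hydrolases *Nudt7* and *Nudt19* cleave coenzyme A and its esters, and *Nudt12* acts on NADH. *Nudt19*, the most abundant, was at 42.12, 50.72 and 45.95 TPM in *Trp53fl/fl* tumors and at 49.38, 61.26 and 48.70 TPM in *VP* tumors. The second tumor was the highest in either genotype, and the ranges overlapped (log2 fold change 0.19, SE 0.13, limma adjusted p = 0.561). *Nudt7* had means of 11.64 ± 1.56 and 11.55 ± 0.993 TPM and *Nudt12* of 3.49 ± 1.13 and 3.09 ± 0.830 TPM. *Nudt19* shares 35.0% of its exonic bases with a gene on the other strand, as *Pex11g* (41.1%) and *Pex14* (28.3%) do, and *Hacl1* shares 31.1% with a gene on its own strand, and these 4 neighbours had means of 0.0 to 0.228 TPM. *Pex16* shares 7.15% with *Large2* on the other strand, which had a mean of 17.4 TPM, and the share of *Large2* reads in the *Pex16* value was not tested.

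Other peroxisomal genes were set beside the members as lists. Of 4 peroxins outside the member list, 4 had a negative fitted sign, with a median log2 fold change of -0.20. At an unadjusted p under 0.05, 1 was lower, beside 8.0% of all genes tested, and none passed the adjustment.

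Peroxisomal β-oxidation is the pathway on which the study centred and shares no gene with the members. Of its 22 listed genes 17 were tested, and 15 had a negative and 2 a positive fitted sign. All *VP* tumors were below all *Trp53fl/fl* tumors for 11 of the 17, beside 13.3% of all genes tested. That share of all genes was 8.09% with median-of-ratios rescaling and 32.6% with epithelial centring. The counts for this list are not given under those scalings. At an unadjusted p under 0.05, 5 were lower and 0 higher, beside 8.0% and 4.51% of all genes tested. None passed the adjustment, and the median log2 fold change was -0.30 beside -0.03 for the members. Examples are *Hsd17b4*, the bifunctional hydratase and dehydrogenase (log2 fold change -0.39, limma adjusted p = 0.301), *Acox3*, an oxidase of branched substrates (log2 fold change -0.43, limma adjusted p = 0.335) and *Acot8*, a thioesterase (log2 fold change -0.38, limma adjusted p = 0.317). Both lists were chosen with results of these tumors known, so the gap between their medians is a description and was not tested.

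**Figure D5:**
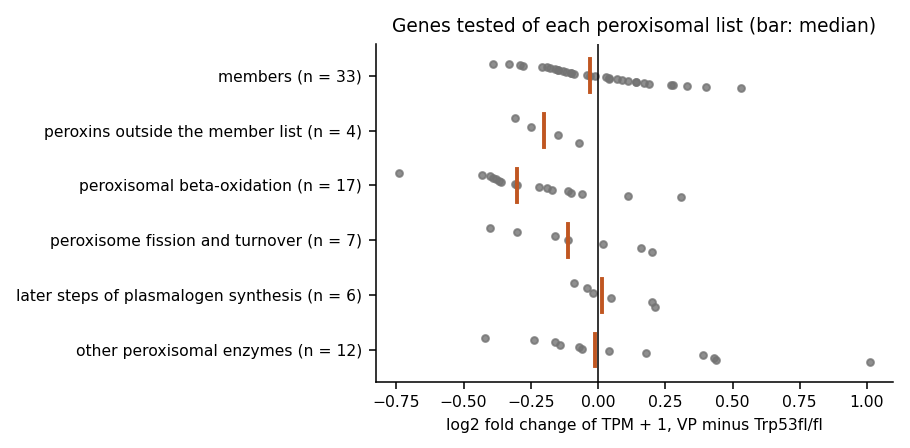
Log2 fold change of TPM + 1, *VP* minus *Trp53fl/fl*, for each gene tested of the members and of 5 other peroxisomal lists, with a vertical bar at the median of each list. The members are spread around their median of -0.03, and the β-oxidation genes lie mostly to the left with a median of -0.30.

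The steps that precede and follow the members' reactions gave medians near 0. Among 7 genes tested of peroxisome fission and turnover, 0 had an unadjusted p under 0.05 and the median log2 fold change was -0.11. Among 6 tested of the later steps of plasmalogen synthesis, which take place at the endoplasmic reticulum, 0 had an unadjusted p under 0.05 and the median was 0.02. Among 12 other peroxisomal enzymes the median was -0.01, and 3 had an unadjusted p under 0.05, all higher in *VP* tumors (4.51% of all genes tested). Among them were *Hao2*, a long-chain hydroxy acid oxidase (log2 fold change 1.01, limma adjusted p = 0.384), and *Grhpr*, the glyoxylate reductase (log2 fold change 0.44, limma adjusted p = 0.324). None of these lists held a gene past the adjustment.

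By role, the summed levels of most groups overlapped between the genotypes. For peroxide removal the sums were 229.2 to 260.4 TPM in *Trp53fl/fl* tumors and 275.1 to 294.8 TPM in *VP* tumors, set almost wholly by *Prdx5*. The groups did not overlap there, nor for the elongation peroxins, at 11.72 to 14.6 TPM and 14.81 to 17.52 TPM. In the other direction they did not overlap for the ether lipid genes, a separation that depended on the scaling as given above. These sums use TPM as deposited, and no share over other gene groups is given beside them. The nearest sums of the elongation peroxins, 14.6 and 14.81 TPM, were almost equal. Epithelial centring took the log2 fold change of *Prdx5* to 0.10, of *Pex11a* to 0.15 and of *Pex11g* to -0.01. Whether the sums that were higher in *VP* tumors stay apart under that centring was not tested. For the oxidases the sums were 6.71 to 8.36 TPM and 7.93 to 12.75 TPM, led by *Paox*, and overlapped. For membrane channels, carriers and tethers they were 87.07 to 106.2 TPM and 82.97 to 89.41 TPM, the upper end set by *Acbd5* in *Trp53fl/fl* replicate 2. The import receptors (36.9 to 45.75 and 37.42 to 39.94 TPM), the matrix proteases (51.37 to 56.06 and 41.15 to 53.79 TPM) and the nudix hydrolases (56.2 to 68.75 and 62.05 to 75.21 TPM) overlapped.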

How the data were processed

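RNA from 6 AOM/DSS-induced colorectal tumors (3 *Trp53fl/fl*, 3 *VP*) was sequenced from both ends after poly(A) selection. The authors deposited TPM per gene, scaled for transcript length and library total and rounded to 2 decimals, for each tumor without pooling. The submitters' processing notes name HISAT2, StringTie and the mouse build mm9, without versions. The annotation and the use of strand in counting are not given in the sources used here. TPM keep no depth, so no count test was made. Columns sum to 999964 to 1000067, all were mapped to tumors by their codes in the labels, 0 columns were left over, and 467 genes carry no name.

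Log2(TPM + 1) was fitted with limma 3.58.1 in R 4.3.3 (empirical Bayes with trend, Benjamini-Hochberg adjustment over all 15117 genes that reached 1 TPM in 3 or more tumors, threshold 0.05). The fit was tested on simulated data. Tables were made with pandas 2.3.3 and numpy 2.4.6 in Python 3.11.15. Gene locations and shared exonic bases came from GENCODE M21 (GRCm38) and promoter windows from RefSeq (GRCm38.p6), matched by gene ID or symbol, and no coordinates of the deposited build were used. Values in every tumor are given for members with an unadjusted p under 0.05, members without overlap between genotypes, and the most abundant member of each role. Other members with a fold change are marked as chosen with their values known. Members and lists were chosen with earlier results of these data known.

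Alternatives were quantile normalization, rescaling by medians of ratios, centring on 12 epithelial markers, a pseudocount of 0.1, a mean of 5 TPM or more or no filter, a block for the replicate number, no trend in the empirical Bayes step, and omission of each tumor. Import signals of the proteins were not analysed here, and some genes of the other peroxisomal lists are not reported here singly.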

Additional observations from a re-analysis of the deposited data

How the results depend on the processing

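No member passed an adjusted p of 0.05 under any alternative run, while the number of genes called among all tested ranged from 6 to 44 (25 as reported). All 23 members with a fold change in the text kept their direction in every setting other than those given below for a change of sign, save that *Far2* was outside the filter at a mean of 5 TPM. The count of members at an unadjusted p under 0.05 that were lower in *VP* tumors was 0 as reported, 1 without a filter, 1 with a mean of at least 5 TPM (*Pex7* in both), 4 with centring on the epithelial markers, and 0 to 1 over the 6 omissions. Over all genes the share lower at that threshold was 8.0% as reported and 24.5% with epithelial centring. The count that were higher was 2 as reported, 3 with median-of-ratios rescaling, 3 with quantile normalization, 0 with epithelial centring, 1 without the trend, and between 0 and 2 when a tumor was omitted, the 0 without *Trp53fl/fl* replicate 2. Over all genes the share higher was 4.51% as reported, 6.95% and 6.07% with those rescalings and 1.9% with epithelial centring. Members with all *VP* tumors lower numbered 3 as reported, 0 with median-of-ratios rescaling, 1 with quantile normalization, 9 with epithelial centring and 3 to 5 when a tumor was omitted (17.0% to 24.2% of all genes). Members with all *VP* tumors higher numbered 4 as reported, 6 with median-of-ratios rescaling, 5 with quantile normalization, 1 with epithelial centring and 4 to 7 over the 6 omissions (8.09% to 12.3% of all genes), the most without *VP* replicate 2.

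The median log2 fold change of the members was 0.04 with median-of-ratios rescaling, 0.06 with quantile normalization, -0.21 with epithelial centring and -0.05 to 0.03 over the 6 omissions. The difference in mean level was 0.07, 0.06 and -0.18 under the same 3 scalings. Epithelial centring moved the median of all genes tested to -0.25 (-0.07 as reported). It turned the sign of *Pex5* (-0.14), *Pex14* (-0.14), *Pex11g* (-0.01), *Pxmp4* (-0.04) and *Phyh* (-0.09). Leaving out a tumor turned the sign of *Pex5* (-0.03 to 0.09, negative without *Trp53fl/fl* replicate 2), *Pex14* (-0.08 to 0.16, negative without *Trp53fl/fl* replicate 2, *VP* replicate 1 or *VP* replicate 3), *Agps* (-0.38 to 0.13, positive without *Trp53fl/fl* replicate 2), *Pex6* (-0.35 to 0.04, positive without *VP* replicate 1) and *Phyh* (-0.03 to 0.18, negative without *VP* replicate 3). The cause of these shifts was not tested.

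The replicate numbers gave no sign of pairing, with correlations of 0.0185, -0.052 and 0.0175 between same-numbered tumors. No tumor correlated best with the tumor of its own number in the other genotype. With the replicate number as a block, 1 member was higher at an unadjusted p under 0.05, *Paox*, and calls over all genes went from 25 to 10. A block leaves the mean level unchanged, as does the fit without the trend. TPM keep no depth, and the median standard error of 0.15 on the log2 scale sets the size of the differences that could be resolved.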
